A study of Mus musculus with 6 samples.

Results

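The LIF, IL-6 and STAT3 axis was examined in sorted mouse chondrocytes as 10 named genes of the 22032 in the deposited matrix. The genes were chosen by name for their place in the pathway, with earlier results of these data known, and all 10 were found. They comprise the ligands Lif, Il6 and Il11, the receptor chains Lifr, Il6ra, Il6st, Il11ra1 and Osmr, the transcription factor Stat3 and its feedback inhibitor Socs3. RNA-seq was performed on 3 samples of embryonic cartilage and 3 samples of adult cartilage, all from the knee. The embryonic samples came from E16.5 embryos by the study's text, whereas the deposited labels give that stage as 16.5 weeks. The adult samples came from male B6 mice that were 2 months old, and the strain and sex of the embryos were not given in the sources used here. Cells of both stages were freed by enzymatic digestion lasting several hours and sorted as LIN- ALP- BMPR1B+ cells, where LIN for the adult cells covered CD31, CD45 and Ter119, ALP is alkaline phosphatase and BMPR1B is a bone morphogenetic protein receptor used to enrich chondrocytes. No genetic change or treatment was applied to either group. The number of animals behind each sample was not given in the sources used here, so p-values measure the spread between these samples.

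Cytokines of this family signal through a shared membrane chain, gp130, which is the product of Il6st. IL-6 and IL-11 first bind their own receptors, IL-6Ra and IL-11Ra1, and these complexes then engage gp130. LIF signals through a pair of LIFR and gp130, and oncostatin M of the mouse chiefly through a pair of OSMR and gp130. Bound receptors activate JAK kinases, which phosphorylate STAT3, and phosphorylated STAT3 enters the nucleus and switches on target genes that include Socs3, whose product shuts off gp130. In cartilage the family is known for its part in skeletal growth and in the breakdown of matrix in inflamed joints. The samples measured RNA and not phosphorylated STAT3, so they give the levels of the parts and not the activity of the pathway.

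Promoter sequence is shown for the 4 members in which a short motif of a factor tied to this pathway was found. The 250 bases before each RefSeq transcript start (GRCm38.p6) were searched on both strands for the AP-1 motif TGACTCA, the STAT motif TTCNNNGAA, the NF-kB motif (GGG, any 2 bases, then TTTCC) and the CRE motif TGACGTCA. All 10 members had at least 1 such window, 13 windows in all. Capitals mark each match, each run reads 5′ to 3′ on the strand of its gene, and a run stops where an annotated exon begins.
Il6, chr5:30012864-30013113, plus strand, upstream of the gene: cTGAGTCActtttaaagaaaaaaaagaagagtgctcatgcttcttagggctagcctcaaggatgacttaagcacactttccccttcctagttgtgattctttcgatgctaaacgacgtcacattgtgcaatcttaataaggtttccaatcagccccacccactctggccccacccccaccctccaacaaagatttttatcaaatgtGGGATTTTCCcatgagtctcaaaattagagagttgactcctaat
Il11, chr7:4778142-4778391, minus strand, inside the gene's span but in no exon: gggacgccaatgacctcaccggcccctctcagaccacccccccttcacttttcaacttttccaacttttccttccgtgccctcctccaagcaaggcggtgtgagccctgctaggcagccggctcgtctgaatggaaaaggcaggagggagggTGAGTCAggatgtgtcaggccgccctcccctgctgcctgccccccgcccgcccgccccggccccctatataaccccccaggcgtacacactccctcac
Lif, chr11:4257318-4257556, plus strand, upstream of the gene: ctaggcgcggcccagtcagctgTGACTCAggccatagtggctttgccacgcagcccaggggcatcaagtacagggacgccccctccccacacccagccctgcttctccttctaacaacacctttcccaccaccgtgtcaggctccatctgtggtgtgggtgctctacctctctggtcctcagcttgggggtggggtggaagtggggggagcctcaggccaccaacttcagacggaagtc
Socs3, chr11:117969452-117969616, minus strand, inside the gene's span but in no exon: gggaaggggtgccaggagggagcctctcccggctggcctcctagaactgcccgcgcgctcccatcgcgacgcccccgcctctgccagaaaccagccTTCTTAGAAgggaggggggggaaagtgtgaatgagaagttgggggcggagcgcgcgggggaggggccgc

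All 3 ligand genes among the members held the AP-1 motif, and none of the other 7 members did. It began 249 bases before the start in Il6, 98 bases before it in Il11 and 228 bases before it in Lif. Over all genes with a window, 5.16% of 27025 held this motif, and over all windows 4.46% of 32851 did. The STAT motif was found in Socs3 alone, 154 bases before the start, and 8.13% of all genes held it. Il6 also held the NF-kB motif, 44 bases before the start, which 1.65% of all genes held. The CRE motif was found in no member and in 1.77% of all genes. These are matches of letters in short windows and say nothing of binding.

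The adult cells held less RNA of Lif, Il11, Lifr, Il11ra1 and Stat3 and more of Il6st and Osmr than the embryonic cells, while Il6, Il6ra and Socs3 were not called different. Levels are given in TPM, a measure of a transcript's share that is scaled to its length, and differences are given as adult minus embryonic on the log2(TPM + 1) scale from limma's moderated test, with p-values adjusted by Benjamini-Hochberg over 13125 tested genes. All 10 members passed the filter of a mean of at least 1 TPM, and 7 were called at an adjusted p under 0.05, 2 higher and 5 lower in adult (3 lower without embryonic sample 1). The 2 stages differed broadly. Of all tested genes 45.3% were called, 23.9% higher and 21.4% lower in adult. Which direction held more calls depended on the scaling, with 3140 higher and 2809 lower as deposited, 2613 and 3238 after median-of-ratios scaling, 2792 and 2830 after quantile normalization and 3509 and 2526 with the 20 highest genes removed. The embryonic and adult values did not overlap for 7 members, against 56.5% of all tested genes. The median difference was -0.35 over the members and 0.16 over all tested genes. In bulk samples, fewer cells that make a transcript and less of it per cell cannot be told apart.

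**Figure D1:**
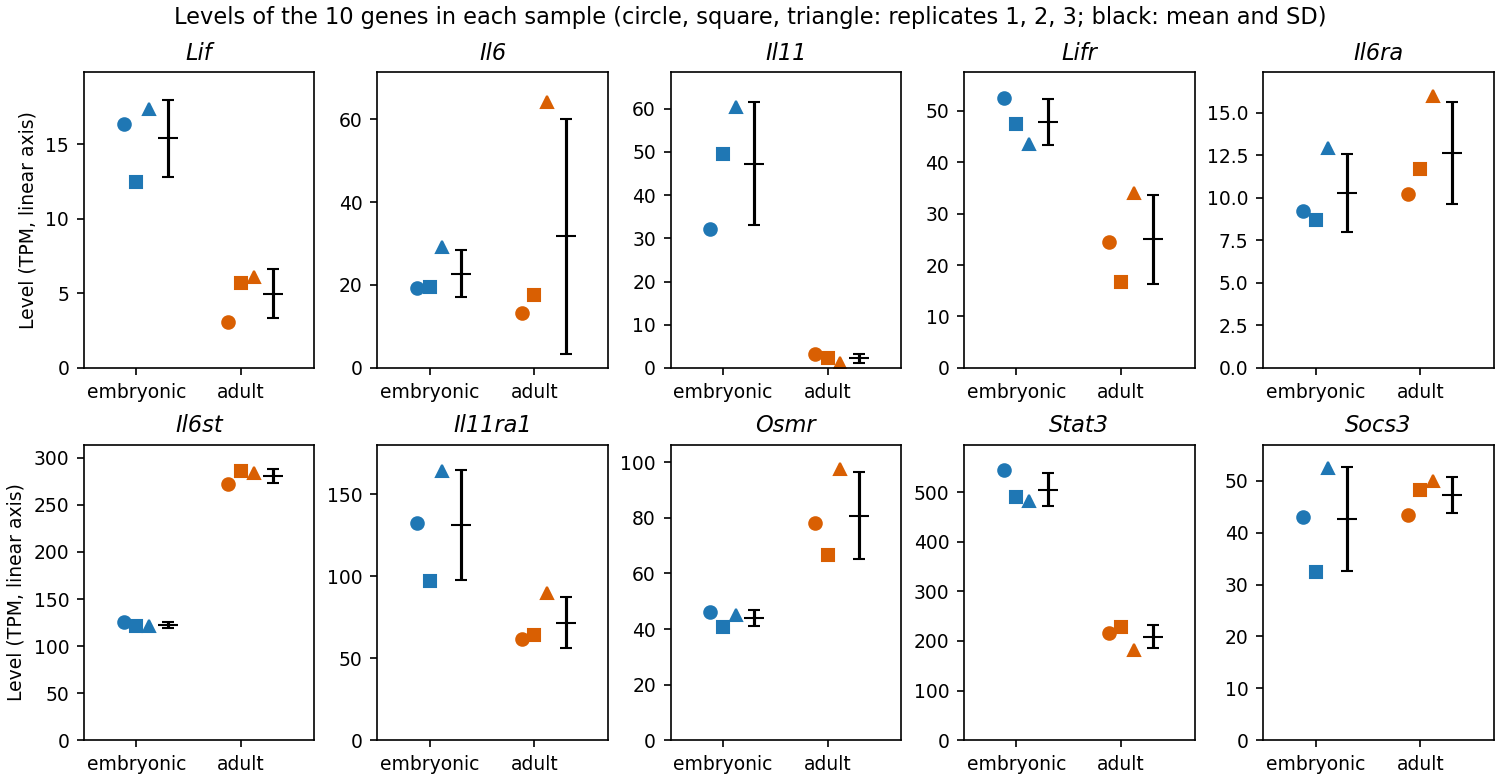
Level in TPM (linear axes from 0) of each of the 10 genes in the 3 embryonic (blue) and 3 adult (orange) samples, with circles, squares and triangles for replicates 1, 2 and 3 and the mean with its SD in black. The stages stand apart for 7 genes and overlap for Il6, Il6ra and Socs3, where 1 adult sample reached 64.2 TPM of Il6.

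Il11 encodes interleukin 11, a gp130 cytokine made by stromal cells, and showed the widest difference among the members. Its level was 32.1, 49.5 and 60.4 TPM in embryonic samples 1 to 3 and 3.26, 2.40 and 1.10 TPM in adult samples 1 to 3. Every embryonic sample stood above every adult sample. The mean fell from 47.3 ± 14.2 TPM (SD, n = 3) to 2.25 ± 1.08 TPM (SD, n = 3), a level 21.0 times lower in adult. The difference on the log2 scale was -3.91 with a standard error (SE) of 0.38 and a 95% interval of -4.78 to -3.04, with an adjusted p of 8.89e-05 from limma.

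Lif encodes leukemia inhibitory factor. Embryonic cells gave 16.4, 12.5 and 17.4 TPM of it, and adult cells gave 3.11, 5.70 and 6.13 TPM. No adult sample reached the lowest embryonic value. The mean was 15.4 ± 2.57 TPM (SD, n = 3) in embryonic and 4.98 ± 1.63 TPM (SD, n = 3) in adult cells, 3.09 times lower in adult. The log2 difference was -1.48 (SE 0.35, 95% interval -2.29 to -0.68), with an adjusted p of 0.00905 from limma.

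Il6 encodes interleukin 6. Embryonic samples held 19.4, 19.6 and 29.3 TPM, and adult samples held 13.2, 17.7 and 64.2 TPM. The stages overlapped, with adult sample 3 above all other samples and adult samples 1 and 2 below all embryonic ones. The log2 difference was 0.15 (SE 0.51, 95% interval -1.02 to 1.32) and the adjusted p from limma was 0.831. Without adult sample 3 it was -0.52, with an adjusted p of 0.194. The interval therefore spans both a lower and a higher adult level.

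Il6st encodes gp130, the chain that all 3 of these cytokines need. Its level was 125.6, 120.9 and 120.8 TPM in embryonic cells, as against 272.3, 286.2 and 283.4 TPM in adult cells. The replicates lay close together within each stage and far apart between stages. The mean rose from 122.5 ± 2.74 TPM (SD, n = 3) to 280.6 ± 7.35 TPM (SD, n = 3), 2.29 times higher in adult. The log2 difference was 1.19 (SE 0.11, 95% interval 0.94 to 1.44) and the adjusted p from limma was 7.17e-05.

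Osmr encodes the oncostatin M receptor chain that pairs with gp130. It stood at 46.3, 40.9 and 44.9 TPM in embryonic cells and at 78.2, 66.5 and 97.6 TPM in adult cells. Each adult sample exceeded each embryonic one. The mean was 44.0 ± 2.79 TPM (SD, n = 3) against 80.8 ± 15.7 TPM (SD, n = 3), 1.83 times higher in adult, with a log2 difference of 0.84 (SE 0.18, 95% interval 0.43 to 1.26) and an adjusted p of 0.00541 from limma. Osm, the ligand of this receptor, was listed at 0 in all 6 samples.

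Lifr encodes the receptor chain for LIF. Values of 52.4, 47.4 and 43.5 TPM were found in the embryonic samples and 24.5, 16.7 and 34.0 TPM in the adult samples. The ranges did not overlap, although adult sample 3 came closer to the embryonic values than the other adult samples. Lifr fell from 47.8 ± 4.46 TPM (SD, n = 3) to 25.1 ± 8.66 TPM (SD, n = 3), with a log2 difference of -0.96 (SE 0.26, 95% interval -1.55 to -0.36) and an adjusted p of 0.0170 from limma. The call was lost without embryonic sample 1 (-0.89, adjusted p = 0.0685) and without embryonic sample 2 (-0.96, adjusted p = 0.0559).

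Il11ra1 encodes the receptor that binds IL-11. Embryonic samples held 132.6, 96.9 and 163.8 TPM and adult samples 61.4, 64.2 and 89.4 TPM. The lowest embryonic sample stood just above the highest adult one. The mean fell from 131.1 ± 33.5 TPM (SD, n = 3) to 71.7 ± 15.4 TPM (SD, n = 3), with a log2 difference of -0.85 (SE 0.22, 95% interval -1.36 to -0.34) and an adjusted p of 0.0142 from limma. The call was lost without adult sample 1 (-0.75, adjusted p = 0.0514), without embryonic sample 1 (-0.83, adjusted p = 0.0537) and without embryonic sample 3 (-0.67, adjusted p = 0.0603). Il11ra1 is also an uncertain count, since Gm13305 and Il11ra2 match 1654 bases at 98.972% and 1299 bases at 98.999% identity in its longest transcript of 2009 bases. Gm13305 was listed at 0.707 TPM in embryonic sample 1 and at 0 in the other samples, and Il11ra2 at 0 in all.

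Il6ra encodes the receptor that binds IL-6 itself. It was low at both stages, with 9.22, 8.68 and 12.9 TPM in embryonic and 10.2, 11.7 and 16.0 TPM in adult samples. The ranges overlapped. The log2 difference was 0.27 (SE 0.32, 95% interval -0.45 to 0.99) with an adjusted p of 0.509 from limma. Exons of Il6ra overlap the antisense gene Gm42809 over 242 bases, and with the strand of the libraries not given, reads there cannot be told apart.

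Stat3, the transcription factor that the receptors share, had the highest level of the members in embryonic cells. Embryonic samples held 544, 490 and 482 TPM, as against 217, 228 and 182 TPM in adult samples. The gap between the stages was far wider than the spread within either. The mean fell from 505 ± 34.0 TPM (SD, n = 3) to 209 ± 23.9 TPM (SD, n = 3), 2.42 times lower in adult, with a log2 difference of -1.28 (SE 0.13, 95% interval -1.57 to -0.98) and an adjusted p of 0.000104 from limma. Exons of Stat3 and of Stat5a on the other strand share 72 bases, while Stat5a itself held 5.84 to 8.38 TPM in embryonic and 9.95 to 15.3 TPM in adult samples.

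Socs3, the feedback inhibitor, did not follow Stat3. Embryonic samples held 43.1, 32.4 and 52.6 TPM and adult samples 43.4, 48.3 and 50.04 TPM. All adult values lay within the embryonic range. The log2 difference was 0.17 (SE 0.21, 95% interval -0.31 to 0.64) with an adjusted p of 0.537 from limma.

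**Figure D2:**
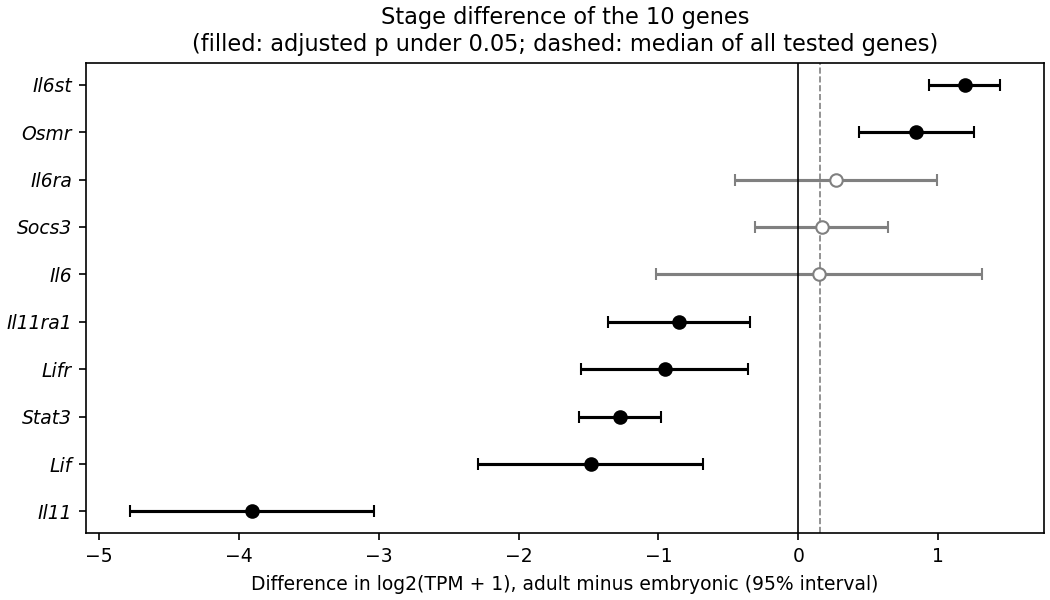
Difference in log2(TPM + 1), adult minus embryonic, for the 10 genes with 95% intervals from limma, filled where the adjusted p was under 0.05 and open otherwise, with the median of all tested genes (0.16) dashed. Among the filled points Il6st and Osmr lie to the right of 0, and 5 genes lie to the left, with Il11 farthest at -3.91. The open points of Il6, Il6ra and Socs3 lie slightly to the right of 0, with intervals that cross it.

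The order of the members by level changed between the stages. In embryonic cells Stat3 came first, followed by Il11ra1 and Il6st with overlapping ranges. Lifr, Il11, Osmr and Socs3 came next, each overlapping its neighbour in the order, then Il6, and last Lif and Il6ra, which overlapped. In adult cells Il6st stood first and above the range of Stat3, which came next. Osmr and Il11ra1 followed with overlapping ranges, then Socs3, Il6 and Lifr, each overlapping its neighbour. Il6ra came next, below the range of Lifr but overlapping that of Il6, and Lif and Il11 came last with overlapping ranges. Il11 thus moved from the middle of the order to its end.

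The balance of the receptor chains was compared within each sample. Osmr was 0.882, 0.864 and 1.03 times the level of Lifr in the embryonic samples and 3.19, 3.99 and 2.87 times in the adult samples. The 2 chains were near parity in embryonic cells, and Osmr exceeded Lifr in every adult sample. The log2 ratio of Osmr to Lifr (with 1 TPM added to each) was -0.11 ± 0.14 (SD, n = 3) in embryonic and 1.69 ± 0.22 (SD, n = 3) in adult samples, a difference of 1.80. An exact two-sided permutation test gave p = 0.1, the smallest that 3 samples against 3 allow.

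Il6st was also set against the summed level of 5 chains that work with it, Lifr, Osmr, Il6ra, Il11ra1 and Cntfr, a sum chosen after the values were seen. The sum was 267, 224 and 298 TPM in the embryonic samples and 184, 160 and 240 TPM in the adult samples, so the stages overlapped. Il6st stood at 0.471, 0.541 and 0.405 times the sum in embryonic samples and at 1.48, 1.78 and 1.18 times in adult samples. The shared chain was thus below the sum in each embryonic sample and above it in each adult sample. Of the single chains in the sum, only Il11ra1 exceeded Il6st, in embryonic samples 1 and 3. Il6ra amounted to 7.34%, 7.17% and 10.7% of the level of Il6st in embryonic and to 3.75%, 4.09% and 5.65% in adult samples.

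**Figure D3:**
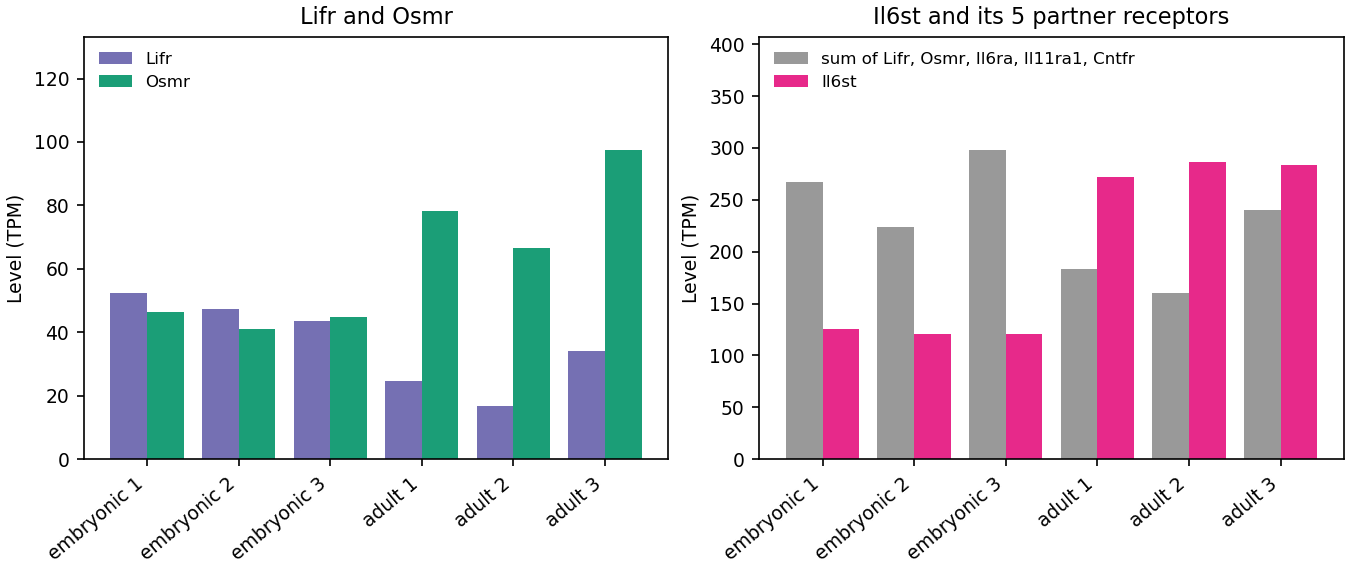
Levels in TPM (linear axes from 0) in each of the 6 samples, on the left Lifr and Osmr, and on the right the summed level of Lifr, Osmr, Il6ra, Il11ra1 and Cntfr beside Il6st. Osmr exceeds Lifr in all 3 adult samples, and Il6st exceeds the sum in all 3 adult samples and in no embryonic one.

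Other genes of the pathway were taken from lists, which include the members and which were chosen with earlier results of these data known. Among 10 gp130 ligand genes 6 were tested, of which 0 were called higher and 3 lower in adult, against 45.3% of all tested genes called in either direction. The called genes described here are Il11 and Lif, whose values stand above. Clcf1, the gene of cardiotrophin-like cytokine factor 1, at 73.6, 48.4 and 49.9 TPM against 44.9, 54.3 and 64.3 TPM, overlapped between the stages (-0.06, adjusted p = 0.842). Ctf1, the gene of cardiotrophin 1, was low, at 0.847, 0.393 and 0.547 TPM against 3.20, 4.11 and 1.13 TPM, and was not called (adjusted p = 0.0894). Cntf, Il27 and Ebi3 did not pass the filter on low values. The median difference of the 6 tested ligand genes was -0.77, against 0.16 over all tested genes.

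Of 8 gp130 receptor genes 6 were tested, with 2 called higher, 3 lower (1 without embryonic sample 1) and a median difference of -0.29. These 5 calls are 83.3% of the tested receptor genes, beside 45.3% of all tested genes. The third lower gene was Cntfr, which encodes the receptor for ciliary neurotrophic factor. It held 26.2, 29.9 and 33.1 TPM in embryonic and 9.36, 1.28 and 2.74 TPM in adult samples (-2.78, SE 0.52, adjusted p = 0.00277 from limma). Every adult sample stood below every embryonic one. Il27ra and Il31ra did not pass the filter.

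Among 11 JAK kinase and STAT genes 10 were tested, with 3 called higher and 2 lower and a median difference of 0.41. The share called was 50%, close to the 45.3% of all tested genes. Jak1, the kinase most used by gp130, was 369, 275 and 266 TPM in embryonic and 198, 215 and 228 TPM in adult samples (-0.49, SE 0.15, adjusted p = 0.0281 from limma). Without embryonic sample 1, adult sample 1 or adult sample 2, Stat3 was the 1 lower call of the list. Jak2 stood at 55.9, 43.5 and 58.5 TPM against 35.3, 39.6 and 36.2 TPM and was not called (-0.49, adjusted p = 0.0563). Tyk2, another kinase of this group, rose from 2.21, 0.937 and 4.10 TPM to 13.8, 16.2 and 14.3 TPM (2.31, SE 0.43, adjusted p = 0.00277). Stat6, which acts downstream of interleukin 4 and 13, rose from 28.2, 28.6 and 17.7 TPM to 141, 123 and 130 TPM (2.39, SE 0.21, adjusted p = 4.84e-05). Stat3 fell, whereas Stat2, Stat5a and Stat5b were not called.

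The list of inhibitors held 16 SOCS, PIAS and phosphatase genes, all tested, with 2 called higher, 3 lower and 11 not called, and a median difference of -0.21. The share called was 31.2%, below the 45.3% of all tested genes. Cish, a SOCS family gene best known as a target of STAT5, fell from 4.92, 5.60 and 8.43 TPM to 0, 0.827 and 0.254 TPM (-2.44, SE 0.47, adjusted p = 0.00305 from limma). Ptpn2, a phosphatase that acts on JAK1 and nuclear STATs, fell by 0.94 (adjusted p = 0.0113), and Socs6 fell by 0.66 (adjusted p = 0.0298). Pias3, the gene of a protein that binds STAT3 and blocks its action on DNA, rose from 9.37, 3.63 and 8.30 TPM to 22.9, 26.8 and 19.3 TPM (1.64, SE 0.37, adjusted p = 0.00690). Pias4 rose by 1.27 on the log2 scale (adjusted p = 0.00224). Socs2 varied widely in adult cells, with 15.5, 14.8 and 26.7 TPM in embryonic and 19.0, 52.8 and 79.3 TPM in adult samples, and was not called (adjusted p = 0.0699).

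Genes known to respond to STAT3 moved in both directions. Of 28 such genes 27 were found and 26 tested, with 10 called higher, 9 lower and 7 not called, a median difference of 0.20 and non-overlapping stages for 20. The share called, 73.1%, stood beside 45.3% of all tested genes, and the share with non-overlapping stages, 76.9%, beside 56.5%. Both shares count the members Socs3, Osmr and Stat3. They also count Saa3, which passed the filter through adult values alone, so that its direction was set by the filter. Among the higher genes, Lcn2, which encodes lipocalin 2, an iron-binding acute phase protein, was 4.13, 1.52 and 0 TPM in embryonic and 318, 175 and 365 TPM in adult samples (6.87, SE 0.55, adjusted p = 2.92e-05 from limma). Saa3, an acute phase serum amyloid gene, had 51.6, 3.92 and 116 TPM in adult samples and was listed at 0 in every embryonic one. Icam1, an adhesion molecule gene, rose from 78.2, 93.1 and 96.4 TPM to 568, 427 and 406 TPM (2.36, SE 0.16, adjusted p = 1.29e-05). Bcl3, the gene of an NF-kB cofactor, rose by 1.60 on the log2 scale (adjusted p = 0.0122).

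Of the lower STAT3 response genes, Il1r1, the interleukin 1 receptor gene, fell from 88.5, 82.0 and 92.2 TPM to 15.6, 17.8 and 18.8 TPM (-2.27, SE 0.17, adjusted p = 2.35e-05 from limma). Vegfa, the angiogenic growth factor gene, fell from 1154, 996 and 1013 TPM to 188, 260 and 302 TPM (-2.09, SE 0.18, adjusted p = 3.82e-05). Ccl2, a chemokine gene, fell by 1.97 (adjusted p = 0.00978), and Myc, a growth regulator, fell by 1.43 (adjusted p = 3.78e-05). Other acute phase genes of the list did not show the pattern of Lcn2 and Saa3, since Serpina3n (-0.83, adjusted p = 0.0747) and Hp (0.63, adjusted p = 0.578) were not called and Lrg1 did not pass the filter. Many genes of this list also answer to factors other than STAT3.

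**Figure D4:**
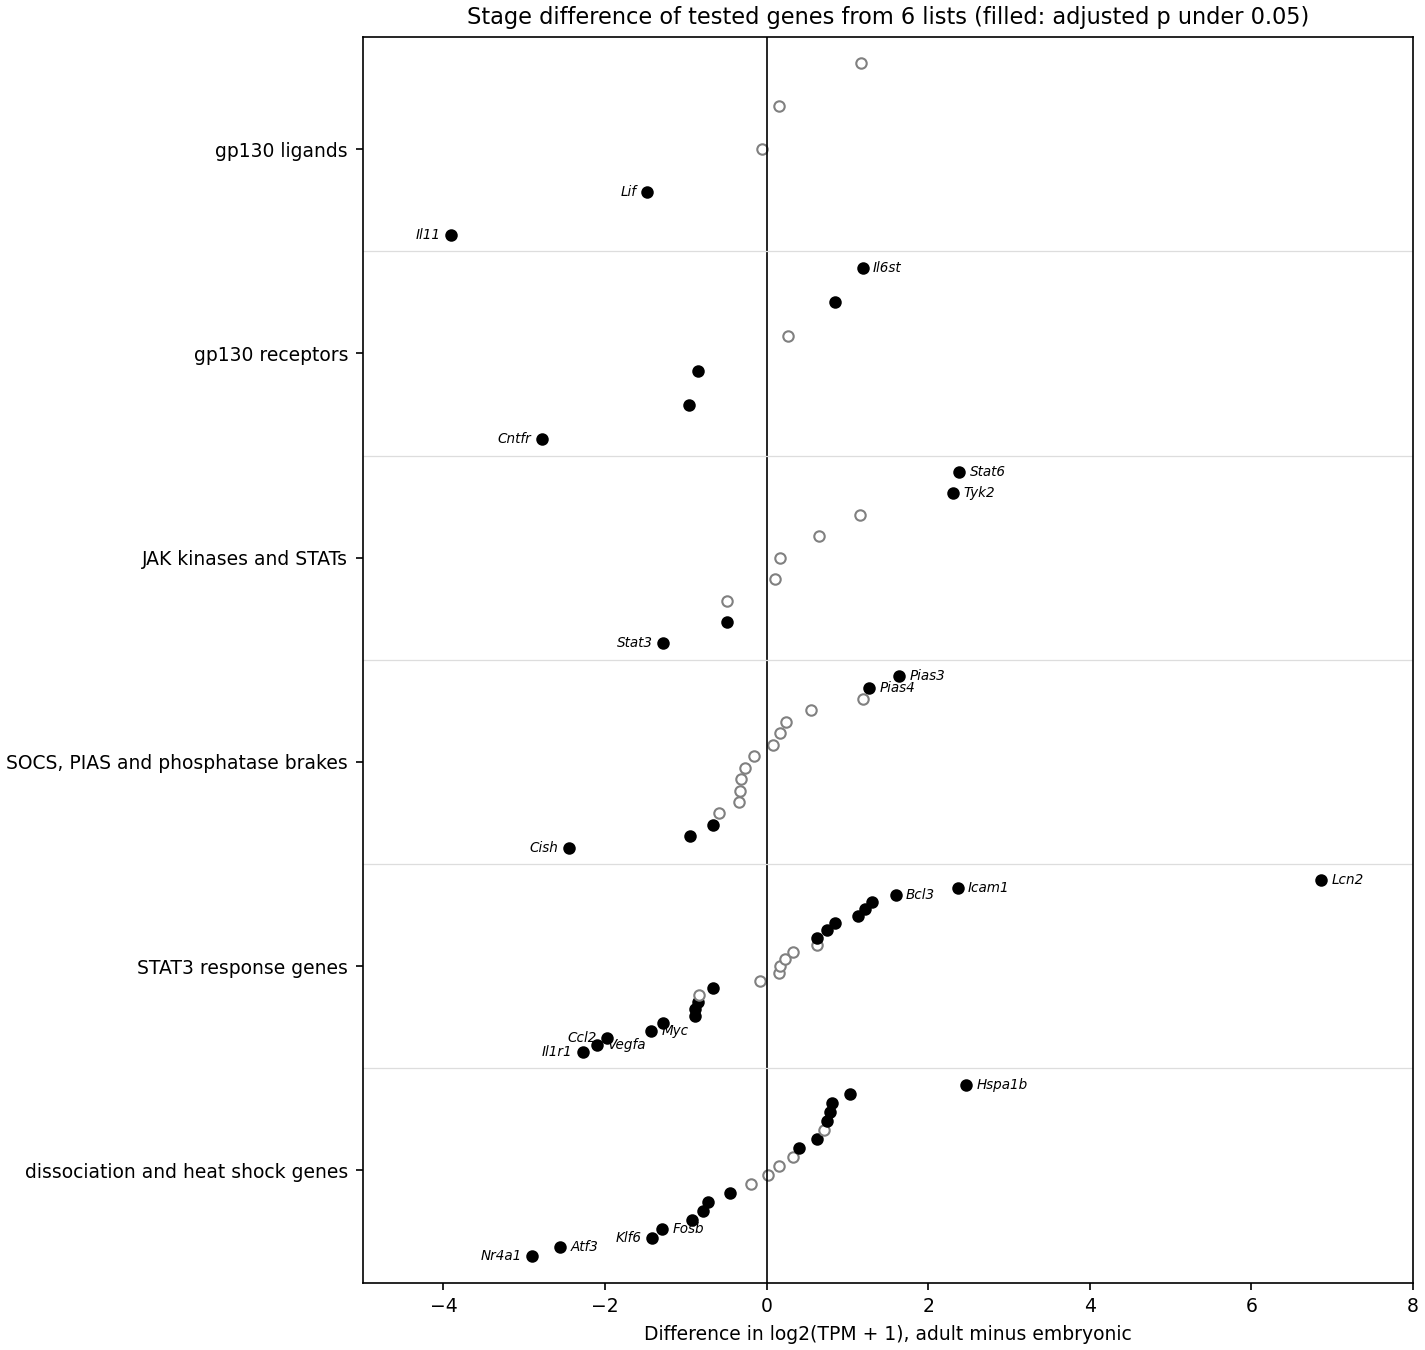
Difference in log2(TPM + 1), adult minus embryonic, of tested genes from 6 lists, filled where the adjusted p was under 0.05. The vertical place inside a band is set by rank alone. Each band shows 1 point per gene, and a gene on more than 1 list, such as Stat3, appears in each of its bands. Saa3, listed at 0 in every embryonic sample, is left out, and named points are those with the largest called differences, from -3.91 for Il11 to 6.87 for Lcn2.

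Several of these genes also respond to the digestion of tissue, and so 20 genes of the dissociation and heat shock response were read in the same samples. All 20 were tested, 7 were called higher, 8 lower and 5 not called, with a median difference of 0.09. The share called was 75%, beside 45.3% of all tested genes. Without embryonic sample 1 the higher calls fell to 4, and without embryonic sample 3 the lower calls fell to 5. Atf3 fell from 627, 645 and 685 TPM to 80.5, 120 and 138 TPM (-2.56, adjusted p = 2.04e-05 from limma). Nr4a1 fell by 2.90 (adjusted p = 0.000127) and Klf6 by 1.42 (adjusted p = 3.53e-05). Of the AP-1 genes, whose proteins bind the motif printed above, Fosb, Jun and Jund were called lower and Junb higher. Their differences were -1.29, -0.93, -0.73 and 0.75 (adjusted p = 0.000273, 0.00417, 0.0278 and 0.000989 from limma). Fos was not called (0.32, adjusted p = 0.0624). The heat shock gene Hspa1b rose from 240, 159 and 221 TPM to 658, 1461 and 1497 TPM (2.47, adjusted p = 0.000318), and Dusp1, Btg2 and Hspb1 rose by 1.04, 0.81 and 0.79 (adjusted p = 0.000124, 0.0144 and 0.00360). The 5 genes that were not called were Fos, Egr1, Ier2, Zfp36 and Hspa1a. The part of this response in the levels of Il6, Lif, Il11 and Socs3 was not tested.

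Cell type markers were checked against the label of the samples. Chondrocyte markers summed to 28151 to 29796 TPM in embryonic and 35968 to 38379 TPM in adult samples, with Col2a1, the cartilage collagen gene, at 14155 to 15251 TPM and 3166 to 7084 TPM. Prg4, the lubricin gene of the joint surface, alone held 23818 to 26392 TPM of the adult sums, and without it the markers summed to 27957 to 29633 TPM in embryonic and 10375 to 13522 TPM in adult samples. Of the 14 markers 4 were called higher, Prg4, Comp, Sox9 and Sox5, and 9 lower, among them Matn3, Col9a1, Col9a2 and Cnmd. Bmpr1b, the marker the cells were sorted for, was not called (-0.76, adjusted p = 0.199 from limma). Alpl, an alkaline phosphatase gene, was called higher in adult although the sort left out ALP+ cells. It held 15.4, 14.4 and 17.9 TPM in embryonic and 38.6, 32.7 and 36.0 TPM in adult samples (1.13, adjusted p = 0.00292 from limma). Osteoblast markers summed to 8378 to 10001 TPM in embryonic and 3293 to 6149 TPM in adult samples. Of these 10, 4 were called higher, Alpl, Bglap, Ibsp and Spp1, and 3 lower, Col1a1, Col1a2 and Dmp1. The largest embryonic values were those of Col1a1, at 5555, 4862 and 5971 TPM, and Col1a2, at 3124, 2710 and 3404 TPM. Bglap was listed at 0 in every embryonic sample and at 26.8, 15.8 and 83.9 TPM in adult samples. It thus passed the filter through adult values alone. Of 11 fibroblast and tendon markers 1 was called higher, Dcn, and 7 lower, among them Tnmd, Scx, Col3a1 and Clec3b, with sums of 5818 to 6537 TPM against 5615 to 6841 TPM. Dcn held 5026 to 6348 TPM of the adult sums, and without it the sums were 5577 to 6212 TPM in embryonic and 493 to 765 TPM in adult samples. Muscle markers were 67.7 to 71.7 TPM in embryonic and 2.27 to 16.1 TPM in adult samples, with Des as the 1 lower call of 5 tested. Endothelial markers summed to 13.5 to 46.7 TPM and 9.14 to 15.0 TPM, with Tek as the 1 lower call of 5 tested, and erythroid markers to 0.312 to 133 TPM and 3.13 to 33.8 TPM with no call by limma among 3 tested. The part of these cell types in the member differences was not tested.

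Leukocytes also make IL-6 family cytokines, so their markers were read beside the member values. The 17 markers summed to 13.6 to 23.1 TPM in embryonic and to 479 to 584 TPM in adult samples. Of 11 tested, 5 were called higher, Cd14, Cd68, Itgam, S100a8 and S100a9, and 1 lower, Fcgr3. The share called was 54.5%, beside 45.3% of all tested genes, and the share with non-overlapping stages was 36.4%, beside 56.5%. S100a8 and S100a9 passed the filter through adult samples 1 and 3 alone, and their stages overlapped. Cd14 alone held 357 to 458 TPM of the adult sum. The pan-leukocyte marker Ptprc was at 0, 0.06 and 0 TPM in embryonic and at 2.29, 0 and 1.03 TPM in adult samples, and C1qa and Cd3e were at 0 in all 6 samples. The neutrophil genes S100a8 and S100a9 were listed at 0 in every embryonic sample and in adult sample 2, but S100a8 reached 36.4 and 41.5 TPM and S100a9 78.4 and 32.4 TPM in adult samples 1 and 3. The acute phase gene Saa3 was also lowest among adult samples in sample 2, at 3.92 TPM, while Lcn2 reached 175 TPM there. The part of leukocytes in these values was not tested.

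With adult samples 1 and 3 left out, an alternative chosen after the data were seen, adult sample 2 stood alone and was taken to vary as the embryonic samples did. In that fit Il6st (1.22), Il11 (-3.78), Lifr (-1.46) and Stat3 (-1.15) kept their direction. Osmr (0.59), Lif (-1.28) and Il11ra1 (-0.99) also kept theirs, without passing the threshold. The spread of adult cells is not measured with 1 adult sample, so a call in that fit cannot show that a difference holds. Lifr was lowest in adult sample 2, at 16.7 TPM. In adult samples 1 to 3, Il6 stood at 13.2, 17.7 and 64.2 TPM and S100a8 at 36.4, 0 and 41.5 TPM. The part of leukocytes in the level of Il6 was not tested.

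The genes most like each member were found by Pearson's r over the 6 samples on the log2 scale, given as a description since the samples fall into 2 stages. For Il6st it was Thrb, a thyroid hormone receptor gene (r = 0.9999), which held 0.667, 0.373 and 0.369 TPM in embryonic and 27.5, 34.0 and 31.8 TPM in adult samples. Lgals3, the galectin 3 gene, came next, from 322 to 369 TPM in embryonic and from 1705 to 1886 TPM in adult samples, followed by Gemin4. For Stat3 it was Fgf18, a growth factor gene of cartilage (r = 0.9996), at 62.5, 52.8 and 47.7 TPM in embryonic and 5.12, 5.64 and 2.83 TPM in adult samples, followed by Tmem39a and Ctdsp2. For Lif it was Tshz2 (r = 0.9986), followed by Vcan, the versican gene, and Tspan9. Il11 was most like Dcaf10 (r = 0.9977), Epb41 and H1fx, and Lifr most like Zfp706 (r = 0.995), 2010111I01Rik and Limch1.

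Among the remaining members, Il11ra1 was most like Sox13 (r = 0.9981), Ece1 and Dpp4, and Osmr most like Hhipl1 (r = 0.9992), Manba and Angel2. The members that were not called had neighbours of their own. Socs3 was most like Prrx1 (r = 0.9887), which held 64.3, 48.6 and 82.6 TPM in embryonic and 70.2, 74.6 and 81.0 TPM in adult samples, followed by Ccnt1 and 8430429K09Rik. Il6ra was most like Cys1 (r = 0.9944), Mrps2 and Sh2b2, and Il6 most like Rhbdl3 (r = 0.9834), Gdpd1 and Fahd2a, all 3 highest in adult sample 3.

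By the GENCODE annotation of GRCm38, Lif lies on chromosome 11 at 4257557 to 4272514, Stat3 on chromosome 11 at 100885098 to 100939540 and Socs3 on chromosome 11 at 117966079 to 117970047. Lifr and Osmr both lie on chromosome 15, at 7090614 to 7197489 and at 6813577 to 6874969, on opposite strands. Il6 lies on chromosome 5 at 30013114 to 30019981, Il11 on chromosome 7 at 4772373 to 4782859, Il6ra on chromosome 3 at 89864059 to 89913196, Il6st on chromosome 13 at 112464070 to 112510086 and Il11ra1 on chromosome 4 at 41699989 to 41769474. The neighbours Lifr and Osmr differed between the stages in opposite directions, as their values above show. Exons of Il11ra1 and Ccl27a overlap by 8 bases.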

How the data were processed

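RNA was measured by single-end sequencing in 3 embryonic and 3 adult samples, grouped by their deposited titles. By the study's methods cDNA was made with random and poly(T) primers, whereas the labels name an mRNA kit. Per the submitters' notes RSEM and GRCm38 were used (version of RSEM not given in the sources used here), and the authors deposited each gene's level as log2(TPM + 1). TPM keeps no read depth, so only the spread of 3 samples shows how precise a level is. All columns were used, and no step was taken on reads.

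Stages were compared on the deposited log2 values by limma (version 3.58.1, R 4.3.3; lmFit and eBayes with trend) over all genes whose mean reached 1 TPM, with stage as the only term and a Benjamini-Hochberg adjusted p under 0.05 as the threshold. EBSeq, which the methods name, needs counts and was not used here. The test was tried first on simulated data. TPM levels were taken back from the log2 scale with a pseudocount of 1. Symbols and positions came from GENCODE M21 and matched 21902 of 22032 identifiers. Near copies, at 95% identity or more over 50% of the longest transcript, were sought with BLAST+ 2.17.0. Promoter windows came from RefSeq.

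The members and lists were chosen with earlier results of these data known. Named genes were all members, up to 4 called genes of each list in each direction with the largest differences and no overlap of the stages (the 2 with the highest mean where fewer than 2 were called) and the 3 genes most like each member. Other genes were named after their values were seen, and a few that the rule names are not reported here. Alternatives changed the pseudocount (0.1), the filter (none, or a mean of 5 TPM), the scaling (quantiles, median of ratios, or TPM rescaled with the 20 highest genes removed), the variance model (no trend, or robust), the threshold (0.01) and the samples (each left out once), or added the replicate number as a block.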

Additional observations from a re-analysis of the deposited data

How the results depend on the processing

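Of 449 values under 17 alternative settings, 406 stayed on the same side of the threshold or near the reported count. Il6 turned to -0.0022 under quantile normalization, to -0.52 without adult replicate 3 and to -0.32 without adult replicates 1 and 3, and Socs3 to -0.013 without embryonic replicate 2, none of them called. At an adjusted p under 0.01, Lifr (-0.96) and Il11ra1 (-0.85) were no longer called, and 1855 genes were called higher and 1863 lower, with 3 members, 1 receptor, 1 JAK or STAT gene, 1 inhibitor and 5 dissociation genes lower and 4 dissociation genes higher. Without adult replicates 1 and 3, 1614 genes were called higher, with 1 member higher and 3 lower, 1 ligand, 1 receptor, 1 JAK or STAT gene and 1 inhibitor higher, 1 JAK or STAT gene lower, 5 dissociation genes lower, and Lif at -1.28, Osmr at 0.59 and Il11ra1 at -0.99. Without trend 1 ligand was called higher and 1 JAK or STAT gene lower, and 1 JAK or STAT gene was called lower without the 20 highest genes. The median difference of all genes was 0.16 as deposited, 0.093 after quantile normalization, 0.028 after median-of-ratios scaling and 0.25 without the 20 highest genes, and the 7 called members kept their direction under each.

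With each sample left out in turn, 2441 to 2796 genes were called higher and 2162 to 2761 lower, with 2 members higher and 3 to 5 lower, 3 without embryonic replicate 1. Ligands called higher numbered 0 to 1, receptors called lower 1 to 3, JAK and STAT genes 2 to 3 higher and 1 to 3 lower, and dissociation genes 4 to 8 higher and 5 to 8 lower. The log2 difference ranged from -0.52 to 0.58 for Il6, from -1.20 to -0.70 for Lifr, from -1.05 to -0.67 for Il11ra1 and from -0.013 to 0.33 for Socs3. The causes were not tested.

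Same-numbered samples did not deviate together over all tested genes (r = -0.0088, -0.017 and -0.022). That check cannot tell whether the numbers mark samples that were handled together. With the replicate number as a block, 2 members were called higher and 5 lower, 2871 of all genes higher and 2559 lower, and 1 JAK or STAT gene lower. TPM without counts sets no limit on how low a level could be detected.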
